A study of Macaca mulatta with 28 samples.

Results

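The genes described here are the very long genes of the macaque amygdala transcriptome, 134 of the 15521 genes in the gene table. A gene belongs to them where its exons span at least 500 kb on 1 chromosome, from the start of its first exon to the end of its last, and where its value reached 10 normalized reads in at least 5 of 28 libraries. Of the 162 genes of that span, CNBD1 was below the level limit. Another 27 were left out by name, most of them cadherins, protocadherins and subunits of glutamate receptors and potassium channels. The choice used gene structure and a level limit and no comparison between animals. Levels are in normalized reads, the reads over a gene's exons multiplied by 1 factor per library.

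Each library held the RNA of 1 male rhesus macaque, 28 animals in all, from a block of brain tissue cut to contain the CeA, the amygdala's central nucleus, which takes part in fear and in alcohol drinking. The block was found by landmarks, beside the optic tract and below the globus pallidus, and can include tissue next to the nucleus. All animals drank ethanol at 4% (w/v), after about 90 days of induction, with 22 h of access daily for more than 12 months, so no group went without it. The labels give 4 drinking categories. Low drinkers (LD, 10 animals) met none of the other definitions. The binge drinkers (BD, 5 animals) reached an intake of 2 g/kg on 55% of days or more, with a blood ethanol of 80 mg/dl or more recorded yearly. For the heavy drinkers (HD, 7 animals) the limits were 3 g/kg and 20% of days. The very heavy drinkers (VHD, 6 animals) had a mean daily intake above 3 g/kg and went beyond 4 g/kg on 10% or more of the days. The animals came from cohort 4 (8 animals, mean age at induction 8.24 years), cohort 5 (7 animals, 5.63 years), cohort 7a (8 animals, 4.18 years) and cohort 7b (5 animals, 5.69 years). The end ages given for them were 9.98 years in cohort 4, 7.15 in cohort 5, 5.7 in cohort 7a and 7.18 in cohort 7b. In the main comparison the 13 HD and VHD animals, called heavy drinkers below, were set against the 15 LD and BD animals, called low drinkers. Cohort 5 held only heavy drinkers, cohorts 4 and 7b held 1 heavy drinker each, and cohort 7a held 4 heavy and 4 low drinkers. With cohort as a term, the difference between heavy and low drinkers therefore rests on the 6 heavy and 15 low drinkers of cohorts 4, 7a and 7b, while the values per group below cover all 13 heavy drinkers.

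In mammals, very long genes owe their length to introns, and RNA polymerase needs hours to cross them. Many encode cell adhesion proteins, receptors and synaptic organizers, and the brain uses more of them than most tissues. Topoisomerases relieve the torsional strain that builds up ahead of the polymerase on long templates, and several of these genes, such as FHIT, PARK2 and LRP1B, lie in common fragile sites of the human genome.

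Depth ran from 1910514 to 25928489 gene reads per library, with a median of 16444833, and 3 reads, the limit that a count of 0 allows, corresponded to 1.82 to 24.1 normalized reads by counting error only. The very long genes took 1.67% to 2.14% of a library, and none of the 134 was at 0 in any library. The 3 shallowest libraries were BD replicate 1, LD replicate 1 and HD replicate 1, all of cohort 4. LD replicate 1 and HD replicate 1 also had the lowest scores for short abundant mRNAs, -0.51 and -0.36 on the log2 scale, while BD replicate 1 had the highest at 0.47. Scores here average a list's genes on the log2 scale after each gene was set to a mean of 0. VHD replicates 3, 4 and 5 had the highest myelin scores, 0.96, 0.70 and 0.49. Marker levels differed widely between animals: the score for glutamatergic neurons of cortex and basolateral amygdala ran from -2.35 to 2.16, and that for hypothalamic and basal forebrain neurons from -3.09 to 4.70. In RNA from a block, fewer cells of a type and less RNA per cell cannot be told apart.

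The spans ran from 501 to 2312 kb, with a median of 640 kb. The longest was CNTNAP2, a contactin-associated protein that helps place potassium channels along axons, at 2312 kb (chr7:170218593-172530996 in the coordinates of the exon table, whose build is not given in the sources used here). It was followed by CSMD1, a complement-regulating membrane protein (2085 kb), LRP1B, a receptor of the LDL receptor family (1983 kb), and CTNNA3, an alpha-catenin of cell junctions (1805 kb). MAGI2, a synaptic scaffold, spanned 1610.3 kb. The diadenosine hydrolase FHIT spanned 1492 kb, the carboxypeptidase AGBL4 1446 kb and the heparan sulfate proteoglycan GPC5 1418 kb. In all, 27 genes spanned at least 1000 kb.

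Just inside the limit lay PPFIA2 at 501 kb, CPNE4 at 503 kb and MYO3B at 503 kb, and just outside it THSD7A at 497 kb and ITPR2 at 495 kb. Span here is that of the deposited gene models. Some genes that are very long in human fell short of the limit, among them DMD at 157 kb, FGF14 at 196 kb, DLG2 at 277 kb, PTPRD at 421 kb and RBFOX1 at 424 kb.

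Length came mostly from the gaps between exons, though the exons were also longer in sum and more numerous than over all tested genes. The exons of a very long gene made up a median of 0.703% of its span, against 10.5% over all 13022 tested genes. Their summed length had a median of 5202 bases, against 2.773 kb over all tested genes. Exons numbered from 2 to 91 (median 17, against 8 over all tested genes), and the 91 were those of LRP1B. The largest gap between neighbouring exons had a median of 244 kb and was at least 100 kb in 123 of the 134 genes; in ASIC2, an acid-sensing sodium channel, it reached 1039 kb. No exon of these genes overlapped an exon of another gene in the table, while 10 of them held another whole gene inside their span.

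**Figure D1:**
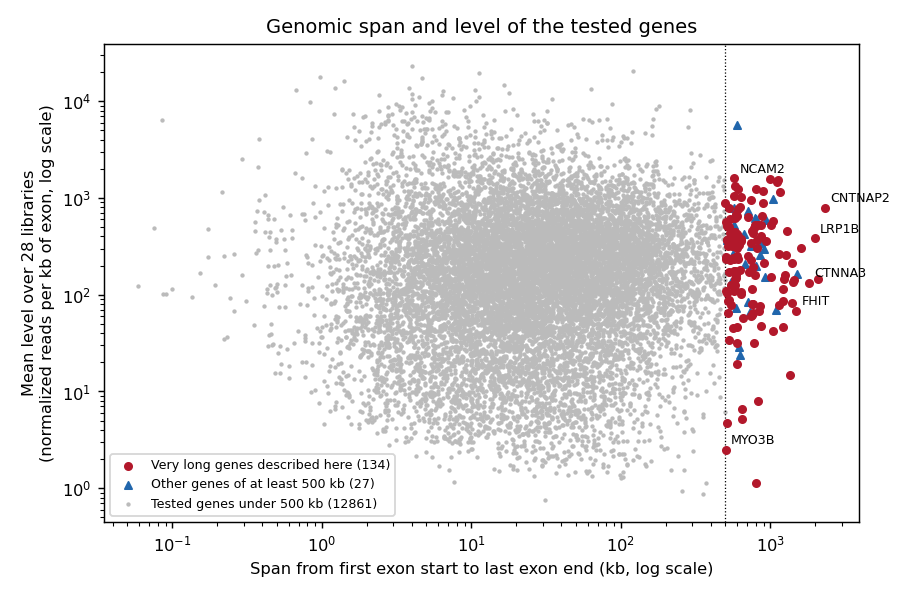
Genomic span (horizontal, kb, log scale) and mean level over 28 libraries (vertical, normalized reads per kb of exon, log scale) of the tested genes. Each point is a gene: red circles are the 134 very long genes, blue triangles the 27 of at least 500 kb left out by name, grey points the 12861 shorter ones, and the dotted line marks 500 kb. The very long genes lie at both high and low levels, with NCAM2 highest at 1603 and MYO3B near the bottom at 2.51.

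Per kb of exon the very long genes were well expressed in the block. Their median level was 236 normalized reads per kb, against 160 over all tested genes, and 81 of the 134 lay above that all-gene median. Among the highest levels per kb were those of NCAM2, a neural cell adhesion molecule (1603 per kb), PTPRN2, a phosphatase-like protein of secretory vesicles (1569), DPP6, a partner of A-type potassium channels (1474), and PHACTR1, a regulator of actin and protein phosphatase (1345). Among the lowest were the unconventional myosin MYO3B (2.51 per kb), the mitochondrial carrier SLC25A21 (4.72), the recombination protein RAD51B (5.21) and THSD4, a matrix protein (6.58). By span, the 27 genes of at least 1000 kb had a median of 152 per kb, and the 107 of 500 to 1000 kb a median of 248. At the low end RAD51B reached 10 normalized reads in 5 libraries only and MYO3B in 16, and 130 of the 134 genes reached it in all 28.

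Very long genes are commonly called neuronal. Each gene was compared with 11 lists of cell type markers by its correlation over the 28 libraries, given as a description, since the libraries share their dissection and cohorts. Of the lists 5 are neuronal, 4 glial and 2 vascular or choroid plexus. The list with the highest correlation was a neuronal one for 98 genes (73.1%, against 63.1% of all tested genes), a glial one for 32 (23.9% against 30.6%) and a vascular or choroid plexus one for 4 (2.99% against 6.30%). Glutamatergic neurons of cortex and basolateral amygdala led for 50 genes and striatal medium spiny neurons for 25. A correlation above 0.5 with the glutamatergic score was found for 38 genes (28.4%, against 15.2% of all tested genes) and one below -0.5 for 23 (17.2%, against 14.95%). For the other neuronal lists the balance was different. With pan-neuronal markers 32 genes were above 0.5 (23.9%, against 16.8% of all) and 26 below -0.5 (19.4% against 15.9%). With markers of striatal medium spiny neurons 16 were above (11.9% against 9.98%) and 25 below (18.7% against 12.1%). With GABAergic markers 12 were above (8.96% against 8.72%) and 30 below (22.4% against 8.95%), and with hypothalamic and basal forebrain markers 17 above (12.7% against 11.9%) and 34 below (25.4% against 9.62%). The median correlation of the 134 genes lay between -0.12 and 0.06 for each of the 5 neuronal lists.

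The genes that followed the glutamatergic score most closely, by Pearson correlation over 28 libraries and chosen after their values were seen, were CLSTN2, a postsynaptic calsyntenin (r = 0.92), ZFPM2, a cofactor of GATA factors (0.91), NCAM2 (0.90) and FAM155A, a subunit of the sodium leak channel (0.89). CLSTN2 was lowest in LD replicate 8, with 440.3 normalized reads at a score of -2.29, and highest in HD replicate 5, with 6533 at a score of 2.16. NCAM2 was lowest in LD replicate 8, with 4315 normalized reads at a score of -2.29, and highest in HD replicate 5, with 13864 at a score of 2.16. On the opposite side stood NELL1, a secreted growth-factor-like protein (r = -0.75), and SEMA5A, a semaphorin that guides axons (-0.72). NELL1 was lowest in HD replicate 5, with 407 normalized reads at a score of 2.16, and highest in HD replicate 7, with 1691 at a score of -1.67.

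Other very long genes followed glial markers. CTNNA3 (r = 0.90), the CREB family factor CREB5 (0.86) and RELN, the secreted glycoprotein reelin (0.84), had their highest correlations with the oligodendrocyte and myelin score. The polarity protein PARD3B had its highest with astrocytes (0.77), and the kinase MAST4 with oligodendrocyte precursors (0.80).

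**Figure D2:**
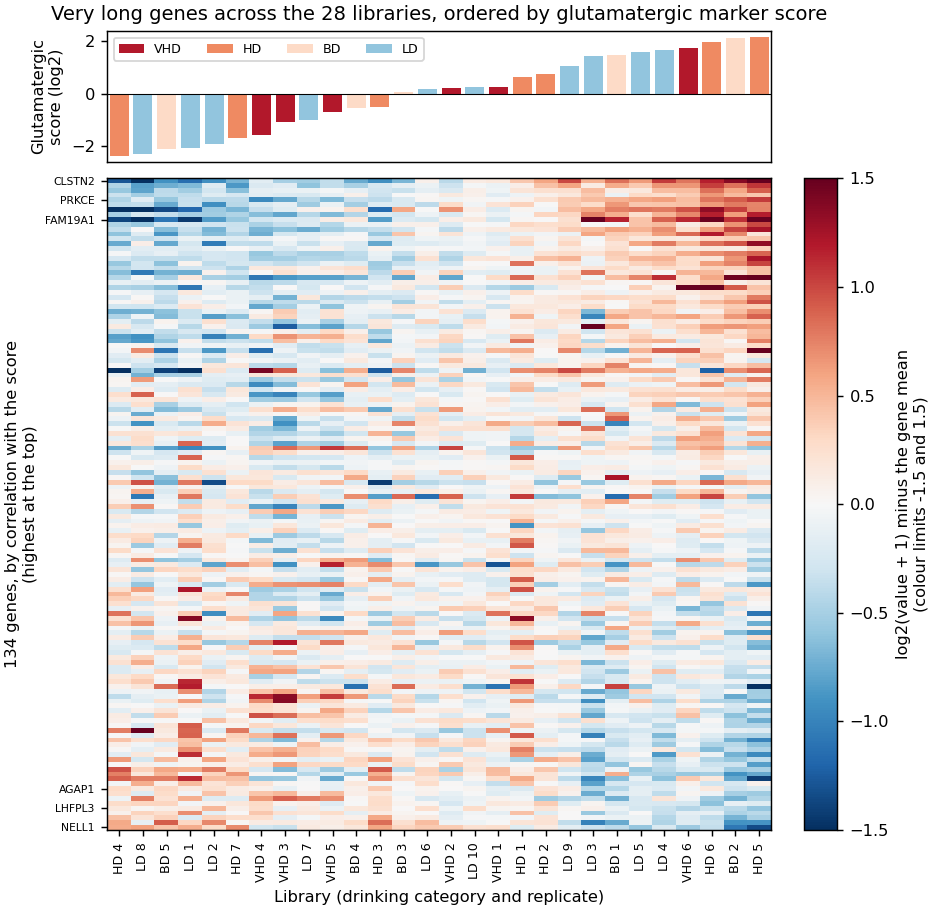
Levels of the 134 very long genes in the 28 libraries. The upper panel shows the glutamatergic marker score of each library (log2), coloured by drinking category, and the lower panel shows each gene (row) as log2(value + 1) minus its mean over the libraries, with red for higher and blue for lower. Rows run from CLSTN2, with a correlation of 0.92 with the score, to NELL1, with -0.75, and animals of all 4 categories lie along the whole order.

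As a group the genes did not move together. The correlation between pairs of very long genes had a median of 0.03 over 8911 pairs, with 5% of pairs below -0.58 and 5% above 0.67. Their SD over the libraries had a median of 0.32 on the log2 scale, against 0.27 for all tested genes. The most variable were FAM19A1, a secreted chemokine-like protein (SD 1.08, 19.6 normalized reads in LD replicate 8 and 889 in LD replicate 3), CLSTN2 (0.931), MYO3B (0.891), the carbonic anhydrase-related protein CA10 (0.845) and STXBP5L, a brake on vesicle release (0.715). The steadiest were TBC1D5, a Rab GTPase regulator (0.0844), MAGI2 (0.118), the active-zone protein ERC1 (0.121), the inhibitory synapse scaffold gephyrin, GPHN (0.132), and RABGAP1L (0.134). HD replicate 5, the library with the highest glutamatergic score, held the highest value of 25 genes and the lowest of 17.

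The genes with the pattern most like that of LRP1B over the 28 libraries were FAT3, a giant cadherin-type adhesion protein (r = 0.904), AKAP6, an anchor of protein kinase A (0.899), and STXBP5L (0.876). The pattern of CNTNAP2 was looked at after values were seen. CNTNAP2 was most like DPP6 (0.740), the diacylglycerol kinase DGKB (0.714) and MCTP1, a calcium-binding membrane protein (0.711).

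The study asks which genes differ with the amount of ethanol drunk. Between heavy and low drinkers no very long gene passed the threshold of an adjusted p of 0.05 in limma (0 of 134), as no gene did among all 13022 (0%). At an unadjusted p under 0.05 there were 3 of the 134 (2.24%), against 4.18% of all tested genes. All 3 were higher in heavy drinkers, where 1.9% of all genes were higher at that p and 2.27% lower. edgeR and DESeq2 on the recovered reads also called 0 of them, with 4 and 6 at an unadjusted p under 0.05. Over all genes edgeR called 0 of 13022 and DESeq2 1 of 13019, with 585 and 629 at that unadjusted p. The 3 genes were CSMD3, a large sushi-domain membrane protein related to CSMD1, LRP1B, and PTPRG, a receptor tyrosine phosphatase.

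CSMD3 ranged from 2491 to 6287 (median 3299.6) normalized reads in the heavy drinkers, against 2727 to 6084 (median 3232) in the low drinkers. The groups overlapped almost fully, and LD replicate 1 (6084) and HD replicate 1 (6287) stood far above the other 26 libraries, whose highest was 4103. With cohort as a term the difference was 1.24-fold (95% interval 1.04 to 1.49), with an unadjusted p of 0.0186 and an adjusted p of 0.998. The differences of mean log2 values, heavy minus low, were 0.83 in cohort 4, 0.17 in cohort 7a and 0.12 in cohort 7b. Of the 13 heavy drinkers 5 were above the mean of the low drinkers. The log2 difference of 0.31 was 0.15 without HD replicate 1 and 0.01 with no cohort term.

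LRP1B ranged from 4092 to 12246 (median 5694) normalized reads in the heavy drinkers, against 3980.4 to 10191 (median 5724) in the low drinkers. The highest values were those of HD replicate 5 (12246) and HD replicate 1 (10676) and the lowest that of BD replicate 5 (3980.4), with the rest intermixed. The fold was 1.36-fold (95% interval 1.05 to 1.74), with an unadjusted p of 0.0195 and an adjusted p of 0.998. Within cohorts the log2 differences were 0.73 in cohort 4, 0.53 in cohort 7a and -0.10 in cohort 7b. Of the 13 heavy drinkers 5 were above the mean of the low drinkers, and with no cohort term the log2 difference of 0.44 was 0.05. LRP1B had a correlation of 0.78 with the glutamatergic score over the libraries. With cohort as a term, all 11 tested markers of that list were above 1-fold in heavy drinkers, none with an unadjusted p under 0.05. Their summed levels were 10158 to 47942 normalized reads in heavy and 12835 to 43269 in low drinkers, with none at 0 in every library. Medians of that sum, with no cohort term, were 21099 (HD) and 16200 (VHD), against 25274 (LD) and 20894 (BD). GABAergic markers split 2 above and 9 below 1-fold, with 2 at that p. Striatal medium spiny neuron markers that are not very long genes split 2 to 8 and myelin markers 2 to 14, with none. Pan-neuronal markers split 8 to 8 and astrocyte markers 7 to 5. With the glutamatergic score as a covariate, an alternative chosen after seeing the data, the log2 difference of LRP1B was 0.34 in place of 0.44.

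PTPRG ranged from 1455 to 3059.7 (median 2288) normalized reads in the heavy drinkers, against 1675 to 2531 (median 2027) in the low drinkers. Values of HD replicates 5 and 6 (2979 and 3059.7) were the highest and those of HD replicates 3 and 4 among the lowest, so the groups overlapped. The fold was 1.19-fold (95% interval 1.02 to 1.39), with an unadjusted p of 0.0255 and an adjusted p of 0.998, and the log2 differences were 0.11 in cohort 4, 0.37 in cohort 7a and 0.14 in cohort 7b. Of the 13 heavy drinkers 10 were above the mean of the low drinkers. The log2 difference of 0.26 was 0.11 with no cohort term and 0.07 with age at induction in place of cohort. Of the next genes by p, the adhesion receptor LPHN3 was at 1.12-fold (p = 0.0592 before adjustment), the neuron navigator NAV2 at 1.34-fold (p = 0.0627 before adjustment), CSMD1 at 1.26-fold (p = 0.0767 before adjustment), the synaptic liprin PPFIA2 at 1.11-fold (p = 0.0801 before adjustment) and TBC1D5 at 1.07-fold (p = 0.0868 before adjustment). The genes with the smallest p below 1-fold were LHFPL3, a tetraspan membrane protein (0.854-fold, unadjusted p = 0.0605), the mitochondrial tRNA synthetase FARS2 (0.872-fold, unadjusted p = 0.143), the ubiquitin ligase subunit FBXL17 (0.922-fold, unadjusted p = 0.147), PTPRN2 (0.893-fold, unadjusted p = 0.154), the netrin receptor UNC5D (0.834-fold, unadjusted p = 0.187), the kinesin KIF26B (0.862-fold, unadjusted p = 0.235), the sodium-calcium exchanger SLC24A3 (0.867-fold, unadjusted p = 0.256) and the glycosyltransferase GALNT13 (0.889-fold, unadjusted p = 0.259). None of these 13 had an unadjusted p under 0.05. PTPRN2 changed sides with the setting: its log2 difference of -0.16 was 0.02 without HD replicate 1, 0.07 with no cohort term and 0.15 in cohort 7a alone, and 10 of the 13 heavy drinkers were above the mean of the low drinkers. With no cohort term KIF26B, SLC24A3 and GALNT13 were above 1-fold too, at log2 differences of 0.06, 0.01 and 0.03.

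**Figure D3:**
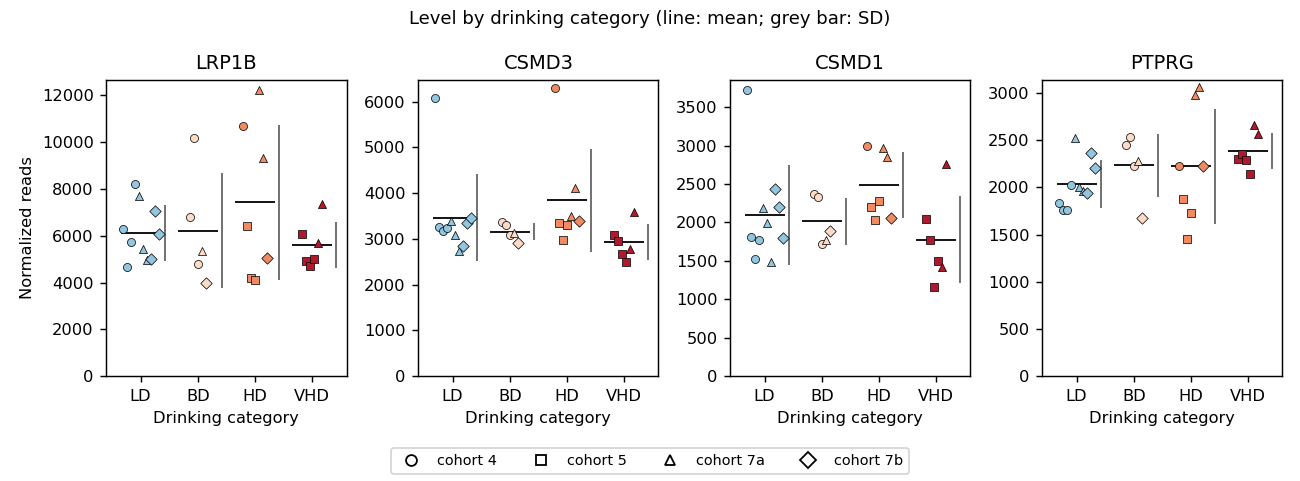
Normalized reads of LRP1B, CSMD3, CSMD1 and PTPRG in every library, by drinking category from LD to VHD. Each point is an animal, shapes mark the cohort, lines the category mean and grey bars the SD. The categories overlap for each gene, and the 2 cohort 4 libraries at 6084 (LD) and 6287 (HD) stand apart for CSMD3.

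As a set, 93 of the 134 genes (69.4%) were above 1-fold in heavy against low drinkers, where 50% of all tested genes were, and their median log2 fold change was 0.08, against 0.00 over all tested genes. By span over all genes the median was -0.05 under 10 kb (3288 genes), 0.04 at 50 to 100 kb and 0.05 at 100 to 250 kb. It was 0.06 at 250 to 500 kb, 0.05 at 500 to 1000 kb (131 genes) and 0.12 at 1000 kb or more (30 genes). Above 1-fold were 64.7% of genes at 100 to 250 kb, 67.3% at 250 to 500 kb, 64.9% at 500 to 1000 kb and 83.3% beyond. The excess over 50% was thus shared by genes shorter than 500 kb. At matched summed exon length, 3.26 to 8.12 kb, the very long genes had a median of 0.09 and the genes under 500 kb one of 0.04. Of these, 68.2% of the very long genes and 62.0% of the shorter ones were above 1-fold. Among the very long genes, the 34 with the longest summed exons (over 8.12 kb) had a median of 0.11 and the 34 with the shortest (under 3.26 kb) one of 0.02. Short abundant mRNAs lay on the other side: 15 of 15 tested were below 1-fold, 3 with an unadjusted p under 0.05, and their summed level was 38684 to 55547 normalized reads in heavy and 33946.0 to 69570.4 in low drinkers, none at 0.

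This shift was smaller without HD replicate 1, the shallow library of the only heavy drinker of cohort 4. Its removal takes cohort 4 out of the difference. Without HD replicate 1 the median of the very long genes was 0.03, and 72 of 134 (53.7%) were above 1-fold. The share over all tested genes in that fit is not given here, so an excess of the very long genes cannot be read from it. The genes of 500 to 1000 kb then had a median of 0.00. Within cohorts the median difference, heavy minus low, was 0.19 in cohort 4 (93 of 134 or 69.4% higher, against 51.0% of all tested genes), 0.02 in cohort 7a (73 of 134 or 54.5%, against 46.7%) and 0.00 in cohort 7b (67 of 134 or 50%, against 53.6%). Over all tested genes the medians were 0.01 in cohort 4, -0.02 in cohort 7a and 0.02 in cohort 7b. In HD replicate 1, 95 of the 134 genes were above their own mean over the 28 libraries and 14 had their highest value. A test of whether the heavy against low difference itself differed among cohorts 4, 7a and 7b called 0 very long genes and 0 of all genes (limma), with 10 and 794 at an unadjusted p under 0.05.

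**Figure D4:**
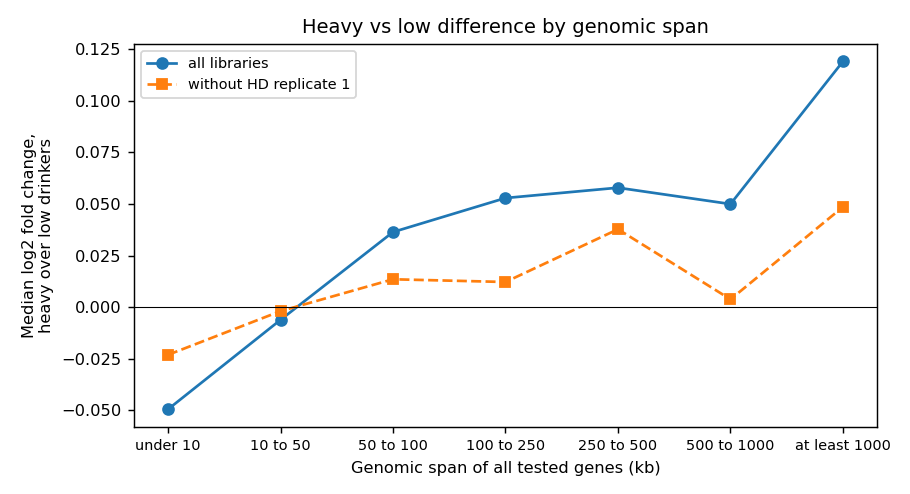
Median log2 fold change of heavy over low drinkers (vertical) for all tested genes grouped by genomic span (horizontal, kb), with all 28 libraries (circles) and without HD replicate 1 (squares). With all libraries the median runs from -0.05 under 10 kb to 0.12 at 1000 kb or more, and without that library from -0.02 to 0.05.

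Of the 6 VHD animals 4 came from cohort 5, which held no LD animal, and 2 from cohort 7a, which held 3. With cohort as a term, the VHD animals of cohort 5 enter the difference from LD only by way of the HD animals. The 3 HD animals of cohort 5 likewise have no LD animal in their cohort. Values per category cover all animals. Between VHD and LD animals limma again called 0 of the 134 genes (0% of all tested). At an unadjusted p under 0.05 there were 15 of 134 (11.2%), against 8.57% of all tested genes, 9 higher in VHD (4.2% of all genes) and 6 lower (4.37%). edgeR and DESeq2 also called 0, with 14 and 17 at an unadjusted p under 0.05. Over all genes they called 0 and 4, with 1220 and 1350 at that unadjusted p. In all 73 of 134 were above 1-fold, against 52.5% of all genes, with a median log2 fold change of 0.04 against 0.01. Without HD replicate 1 that median of the very long genes was -0.000438. Within cohort 7a, with 2 VHD and 3 LD animals, their median difference was 0.02, with 53.7% higher, against 52.5% of all genes.

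PTPRG had the smallest p: 2141 to 2658 (median 2327) normalized reads in VHD, against 1756 to 2524 (median 1980.4) in LD. All 6 VHD values exceeded the LD median, though LD replicates 5, 9 and 10 (2524, 2361 and 2208) reached into the VHD range. The fold was 1.37-fold (95% interval 1.13 to 1.66), with an unadjusted p of 0.00223 and an adjusted p of 0.522. CTNNA3 had 347 to 966 (median 602) in VHD, against 284 to 518 (median 342) in LD, and its 3 highest VHD values were those of replicates 3, 4 and 5. Its fold was 1.62-fold (95% interval 1.06 to 2.49), with an unadjusted p of 0.0279 and an adjusted p of 0.565. NAV2 had 809 to 1539 (median 1075) in VHD, against 433 to 1618 (median 773) in LD, at 1.63-fold (p = 0.0223 before adjustment), and PARD3B was at 1.34-fold (p = 0.0170 before adjustment). The groups overlapped for all of these genes. Without HD replicate 1 the log2 difference of CTNNA3 was 0.46 in place of 0.70 and that of NAV2 0.52 in place of 0.71.

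Lower in VHD by the same count was MCTP1, with 1299 to 2979 (median 1753) normalized reads in VHD, against 1956 to 4157 (median 2886) in LD. Its values in VHD replicates 3, 4 and 5 (1299, 1505 and 1414) were below every LD value, and those of VHD replicates 1 and 6 (2979 and 2782) lay in the middle of the LD range. The fold was 0.698-fold (95% interval 0.522 to 0.935), with an unadjusted p of 0.0179 and an adjusted p of 0.542. AGBL4 was at 0.785-fold (p = 0.0297 before adjustment), UNC5D at 0.676-fold (p = 0.0318 before adjustment) and DPP6 at 0.786-fold (p = 0.0321 before adjustment). CNTNAP2, the longest gene, had 5325 to 9069.8 (median 6876) in VHD, against 6259 to 9786 (median 8384) in LD, at 0.800-fold (p = 0.0400 before adjustment).

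Markers of other cells were read in the same comparison. In VHD against LD, 16 of 16 oligodendrocyte and myelin markers were above 1-fold, 3 with an unadjusted p under 0.05, and 8 of 10 hypothalamic and basal forebrain markers were, with no marker of either list at 0 in every library. The summed level of the myelin markers was 75221 to 145144 (median 106079.8) normalized reads in VHD, against 49875 to 107219 (median 65871) in LD, and that of the hypothalamic and basal forebrain markers 151 to 41845 (median 11688) in VHD, against 305 to 10339 (median 812) in LD. Of the astrocyte markers 10 of 12 were above 1-fold, 1 with an unadjusted p under 0.05. Of the 10 striatal medium spiny neuron markers that are not very long genes none was above 1-fold, 3 had an unadjusted p under 0.05, and the median log2 fold change was -0.44. The summed level of that list was 6892 to 22439 (median 8404) in VHD, against 9276 to 62094 (median 16365) in LD. GABAergic markers split 5 above and 6 below, with 5 of the 11 at an unadjusted p under 0.05, and glutamatergic markers 7 above and 4 below, with none. With pan-neuronal, myelin and astrocyte scores as covariates, the log2 difference of MCTP1 was -0.09 in place of -0.52. DPP6 was then at -0.04 in place of -0.35, CTNNA3 at 0.25 in place of 0.70 and PARD3B at 0.23 in place of 0.42. The glutamatergic score as a covariate was an alternative chosen after seeing the data. With it PTPRG was at 0.42 in place of 0.46 and NAV2 at 0.79 in place of 0.71, and their values with the other scores are not given here. The causes of these changes were not tested. VHD replicates 3, 4 and 5 had the 3 highest myelin scores of all libraries. Without these 3 libraries, an alternative chosen after seeing the data, 4 of 134 genes had an unadjusted p under 0.05 in place of 15, and the median log2 fold change was 0.10 in place of 0.04. That left VHD replicates 1, 2 and 6, of which only replicate 6 shared a cohort with LD animals. With fewer VHD animals such a count can fall for that reason alone, so it cannot show a part of myelin. The matching count over all tested genes is not given here. The log2 difference of CTNNA3 was then 0.27 in place of 0.70, that of MCTP1 -0.11 in place of -0.52, that of DPP6 -0.04 in place of -0.35 and that of AGBL4 -0.04 in place of -0.35. NAV2 was then at 0.39 in place of 0.71 and UNC5D at -0.38 in place of -0.56. PTPRG kept its size, 0.51 in place of 0.46.

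Between HD and LD animals limma called 0 of the 134 genes (0% of all tested), and edgeR and DESeq2 called 0 (0 and 1 over all genes). At an unadjusted p under 0.05 there were 6 (4.48%, against 3.96% of all tested genes; 6 and 7 in edgeR and DESeq2, against 532 and 616 over all genes). All 6 were higher in HD, where 1.41% of all genes were higher at that p and 2.56% lower: CSMD3 (1.26-fold, unadjusted p = 0.0152), CSMD1 (1.35-fold, unadjusted p = 0.0257), LRP1B (1.37-fold, unadjusted p = 0.0291), PTPRG (1.18-fold, unadjusted p = 0.0419), the kinase-like ULK4 (1.22-fold, unadjusted p = 0.0485) and TBC1D5 (1.08-fold, unadjusted p = 0.0498). CSMD1 had 2038 to 2992 (median 2284) normalized reads in HD, against 1491 to 3730.1 (median 1900.3) in LD. All HD values lay inside the LD range, whose top was LD replicate 1 at 3730.1. Of the 134 genes 92 were above 1-fold, against 47.9% of all genes, with a median of 0.09 against -0.01, and without HD replicate 1 the median was 0.06 with 58.96% above 1-fold. The share of all genes without that library is not given here. Of the markers, 11 of 11 glutamatergic markers were above 1-fold (median log2 fold change 0.51), while 10 of 11 GABAergic (-0.30), 15 of 16 oligodendrocyte and myelin (-0.17), 9 of 10 hypothalamic and basal forebrain markers (-2.05, 4 at an unadjusted p under 0.05) and 14 of 15 short abundant mRNAs (-0.09) were below it. Summed glutamatergic markers were at 19067 to 47942 (median 21099) normalized reads in HD, against 12835 to 33572 (median 25274) in LD, and summed hypothalamic and basal forebrain markers at 67.4 to 1926 (median 390.3) in HD, against 305 to 10339 (median 812) in LD, with none at 0 in every library. With pan-neuronal, myelin and astrocyte scores as covariates, the log2 difference of CSMD1 was 0.26 in place of 0.44. That of GALNT13 was then -0.18 in place of -0.28. With the glutamatergic score as a covariate, an alternative chosen after seeing the data, that of PTPRG was 0.18 in place of 0.24. The causes of these changes were not tested. The 4 with the smallest p below 1-fold were LHFPL3 (0.849-fold, unadjusted p = 0.0764), GALNT13 (0.826-fold, unadjusted p = 0.0855), the sialyltransferase ST6GALNAC3 (0.784-fold, unadjusted p = 0.151) and SLC24A3 (0.824-fold, unadjusted p = 0.154).

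Between BD and LD animals 0 of the 134 genes were called by limma (0% of all tested), edgeR or DESeq2, and 0 had an unadjusted p under 0.05 in any of the 3, against 3.52% of all tested genes in limma. Over all genes edgeR and DESeq2 called 0, with 315 and 331 at that unadjusted p. The smallest p belonged to FBXL17 (1.11-fold, unadjusted p = 0.0658), the transcription subunit SUPT3H (1.15-fold, unadjusted p = 0.0687), FHIT (1.29-fold, unadjusted p = 0.0810) and PARD3B (1.17-fold, unadjusted p = 0.0985) above 1-fold, and to the sarcoglycan SGCZ (0.801-fold, unadjusted p = 0.0849), the mitochondrial peptidase subunit IMMP2L (0.835-fold, unadjusted p = 0.134), the zinc finger factor MECOM (0.863-fold, unadjusted p = 0.161) and PARK2 (0.859-fold, unadjusted p = 0.167) below it. FHIT had 160.3, 80.7, 86.7, 102 and 43.8 normalized reads in the 5 BD animals, against 46.0 to 87.8 (median 67.6) in LD. The top BD value was that of BD replicate 1, the shallowest library. The 3 comparisons with LD share the LD animals.

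Well known neuronal genes of the set are given in every category. CNTNAP2 had 6259 to 9786 (median 8384) normalized reads in LD, 7295, 6217, 7526, 7095 and 7918 in BD, 7783 to 10094 (median 8720.0) in HD and 5325 to 9069.8 (median 6876) in VHD, with the HD range the highest and overlapping the others. DPP6 had 6193 to 8801 (median 8157) normalized reads in LD, 6983, 8781, 6867, 6842 and 8632 in BD, 6702 to 9600.4 (median 8683) in HD and 5085 to 8881 (median 6367) in VHD, with the VHD range the widest.

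CTNNA2, an alpha-catenin of neuronal adherens junctions, had 3939 to 5259 (median 4458) normalized reads in LD, 5339, 4883, 4320.2, 3832 and 4040.0 in BD, 3722 to 5718 (median 4685) in HD and 3812 to 5001 (median 4583) in VHD. LSAMP, an adhesion molecule of the limbic system, had 2815 to 4518 (median 3719) normalized reads in LD, 3776, 3984, 3419, 3337 and 3108 in BD, 3380.5 to 4422 (median 3809) in HD and 2890.3 to 3985 (median 3387) in VHD. IL1RAPL1, a synaptic receptor-like protein linked to intellectual disability, had 405 to 1198 (median 520.4) normalized reads in LD, 465, 521, 505, 438 and 531 in BD, 488 to 1169 (median 592) in HD and 439 to 565 (median 502) in VHD. For CTNNA2 and LSAMP the medians of the categories lay inside one another's ranges, and for IL1RAPL1 the tops of the LD and HD ranges were again LD replicate 1 and HD replicate 1.

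ROBO2, a receptor for the axon guidance cue Slit, had 1926 to 3569 (median 2679.9) normalized reads in LD, 2581, 3926, 1799, 2046 and 1940.3 in BD, 2369 to 4957 (median 2622) in HD and 1914 to 3001 (median 2093) in VHD. DCC, the netrin receptor, had 720.1 to 1996 (median 1324) normalized reads in LD, 2116, 2222, 1059.5, 1297 and 903 in BD, 917 to 2607 (median 1357) in HD and 1308 to 2128 (median 1601) in VHD. ERBB4, the neuregulin receptor kinase of interneurons, had 2658 to 5160.4 (median 3351) normalized reads in LD, 4225, 3786, 4626, 4027 and 2639 in BD, 3026 to 4674 (median 3527) in HD and 3131 to 4842 (median 3586) in VHD. For these 3 genes each category's range overlapped every other. MAGI2 had 1804 to 2307 (median 1934) normalized reads in LD, 2261, 2012, 2138, 2171 and 2055 in BD, 1867 to 2437 (median 2149) in HD and 1829.6 to 2222 (median 2129.7) in VHD. PARK2, the ubiquitin ligase parkin, had 267 to 358 (median 313) normalized reads in LD, 353, 377, 229.7, 217 and 224 in BD, 222 to 487 (median 295) in HD and 174 to 297 (median 249.7) in VHD, with its top in HD replicate 5.

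By role, 27 very long genes encode adhesion proteins and synapse organizers. Of these, 22 were above and 5 below 1-fold in heavy against low drinkers (median log2 fold change 0.12, 2 at an unadjusted p under 0.05), beside 17 above and 7 below among the 24 other tested genes of the same list (median 0.09). In VHD against LD the 27 split 14 to 13. Enzymes, trafficking proteins and fragile-site genes split 16 to 11, with 1 at an unadjusted p under 0.05, beside 50 to 13 among the 63 other genes of that list. In the smaller groups none had a gene at that p. Kinases and G protein signalling proteins split 8 to 2 (other genes of the list 26 to 23), scaffolds 6 to 3 (21 to 4), channels and transporters 4 to 5 (23 to 14) and transcription and chromatin factors 5 to 3 (38 to 21). Axon guidance proteins split 4 to 2 (18 to 13), the cytoskeleton 3 to 3 (28 to 6), growth factors and their receptor kinases 2 to 1 (15 to 6) and RNA-binding proteins 2 to 1 (10 to 5). The 26 genes in none of these lists split 21 to 5.

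These splits moved with HD replicate 1, whose removal took the whole set to 72 of 134 above 1-fold. Without it, an alternative for these lists chosen after seeing the data, the 27 adhesion proteins split 20 to 7 (median 0.06, against 0.08 for the other genes of the list) and the enzymes, trafficking and fragile-site genes 12 to 15. Kinases and G protein signalling proteins then split 6 to 4, scaffolds 5 to 4, channels and transporters 4 to 5, transcription and chromatin factors 5 to 3, axon guidance proteins 3 to 3, the cytoskeleton 2 to 4, growth factors 1 to 2 and RNA-binding proteins 1 to 2. The 26 genes in none of these lists split 13 to 13. How the other genes of each list split without that library is not given here.

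Proteins that help polymerase through long templates, among them topoisomerases and elongation factors, were measured beside these genes. Of 36 tested genes on this list, 24 were above and 12 below 1-fold in heavy against low drinkers (median log2 fold change 0.05) and TOP2A, a topoisomerase of dividing cells, alone had an unadjusted p under 0.05, at 0.601-fold (p = 0.0166, adjusted p = 0.998, limma). The elongation factor TCEA2 (0.841-fold) and the kinase CDK13 (1.09-fold) followed. Of the 19 RNA-binding proteins known to act on long introns, 11 were above and 8 below 1-fold, with none at an unadjusted p under 0.05. The smallest p there were those of the splicing factors U2AF2 (0.906-fold) and U2AF1 (0.885-fold).

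The 4 cohorts were compared with drinking category as a term. limma called 0 of the 134 genes (0% of all tested), and edgeR and DESeq2 called 0. Over all genes edgeR called 0 of 13022 and DESeq2 19 of 13019. At an unadjusted p under 0.05 there were 23 of 134 (17.2%), against 9.41% of all tested genes. In edgeR there were 26 of 134 and 1340 of all genes, and in DESeq2 34 of 134 and 1660 of all. Of the 27 genes left out by name 37.0% reached it, and of the 27 very long genes of at least 1000 kb 7.41%. The smallest p belonged to PTPRG (0.00306, adjusted 0.330), ULK4, LRP1B, PTPRN2, CSMD3, C10orf11, ENOX1 and KIF26B, whose adjusted p ranged up to 0.414.

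PTPRG had 1756 to 2531 (median 2127) normalized reads in cohort 4, 1455 to 2349.6 (median 2141) in cohort 5, 1958 to 3059.7 (median 2547) in cohort 7a and 1939, 2361, 2208, 1675 and 2230.2 in cohort 7b, with the highest median in cohort 7a, the youngest. ULK4 had 441 to 907 (median 495) in cohort 4, 404 to 721 (median 518) in cohort 5, 327 to 489 (median 403) in cohort 7a and 389, 504, 423, 434 and 629.8 in cohort 7b, with the lowest median in cohort 7a. ENOX1, a cell surface oxidase, had 347 to 620.0 (median 505) in cohort 4, 343 to 426 (median 385) in cohort 5, 362 to 516 (median 467) in cohort 7a and 473, 407, 445, 384 and 495 in cohort 7b, with the lowest median in cohort 5. The ranges of the cohorts overlapped for all 3 genes. The cohorts differ in age, and the glutamatergic score had a median of 1.05 in cohort 4, -0.52 in cohort 5, 0.88 in cohort 7a and -1.67 in cohort 7b. Age, cohort and dissection cannot be told apart here.

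Long genes often carry alternative start sites and exons, so relative exon use was tested in the 125 very long genes with at least 3 tested exons. Between heavy and low drinkers limma's diffSplice F test called 0 of 125 (0.0917% of all 9817 genes), with NKAIN2 alone at an unadjusted p under 0.05 (0.8% against 1.73% of all). In NKAIN2, which encodes a partner of the sodium pump, the exon with the smallest p is 61 bases long (chr6:142595217-142595277) and had 13 to 118 normalized reads (median 63) in heavy drinkers, against 5 to 87 (median 18) in low drinkers. A Simes test over exons, an alternative, called CTNNA2 alone of the 125 (adjusted p = 0.0257) and 103 of all 9817 genes (1.05%). Its 81-base exon (chr2a:81804486-81804566), the 8th of 18 by coordinate, had 30 to 155 normalized reads (median 108) in heavy drinkers, against 25 to 136 (median 38) in low drinkers. The groups overlapped in both exons. By the F test CTNNA2 had an unadjusted p of 0.0641, and ASTN2, SGCZ and PHACTR1 were next, at 0.255 and above.

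Between cohorts 7a and 4 the F test called 0 of 125 (0.122% of all genes), with ERC1 alone at an unadjusted p under 0.05 (0.8% against 2.94% of all). Its 145-base exon (chr12:1410176-1410320) had 57 to 101 normalized reads (median 86) in cohort 7a, against 32 to 102 (median 62.5) in cohort 4. The Simes test called DPYD, the enzyme that degrades pyrimidines (adjusted p = 0.0229), alone of the 125, and 148 of all 9817 genes (1.51%). It did so through a 1156-base exon with 2 to 13 normalized reads (median 7) in cohort 7a, against 7 to 59 (median 13.5) in cohort 4. The values of that exon were low. By the F test the next genes were DPYD, PHACTR1, SOX6 and MAGI2, with unadjusted p of 0.0505 to 0.116.

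Reads along a long gene need not be even, so the exons of each gene with at least 6 tested exons were split at the middle of their coordinate order, and the log2 ratio of the summed values on the low-coordinate side to the high-coordinate side, the end balance, was taken per library. Transcript strand was not used here, so neither side is called the start of a gene. Between heavy and low drinkers limma called 0 of 110 genes (0% of all 7097), and 3 had an unadjusted p under 0.05 (2.73%, against 4.07% of all). These were CEP112, a centrosomal protein, which was lower in heavy drinkers, and RBMS3, an RNA-binding protein, and KIAA1217, which were higher (2.06% of all genes were lower and 2.01% higher at that p). The receptor kinase ALK and the G protein regulator RGS7 came next, at 0.0510 and 0.0523. CEP112 had an end balance of -0.34 to 0.65 (median 0.0376) in heavy drinkers, against -0.10 to 0.64 (median 0.117) in low drinkers, with p = 0.00388 before adjustment and 0.9997 after it. Of the 110 genes 53 were higher, against 49.5% of all.

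Among cohorts limma called 0 of 110 (0% of all), while 16 had an unadjusted p under 0.05 (14.5%, against 4.38% of all). The smallest p belonged to SOX6, a factor of interneuron and oligodendrocyte development (p = 0.000205, adjusted p = 0.708), CSMD2, NAV2, GMDS, an enzyme of GDP-fucose synthesis, and CNTNAP2. The end balance of SOX6 averaged -1.47 ± 0.13 in cohort 4, -1.66 ± 0.17 in cohort 5, -1.86 ± 0.16 in cohort 7a and -1.86 ± 0.10 in cohort 7b (SD, n = 8, 7, 8 and 5). Every cohort 4 value of SOX6 exceeded every cohort 7b value, and the lowest value of cohort 4 (-1.62) lay above the highest of cohort 7a (-1.66). CSMD2 averaged -0.28 ± 0.26 in cohort 4, against 0.11 ± 0.07 in cohort 7a, and GMDS -0.80 ± 0.25 in cohort 4, against -0.40 ± 0.20 in cohort 7a. Without HD replicate 1 the count of 16 was 7, and the matching count over all genes is not given here. Cohort 4 held the 3 shallowest libraries, and the part of depth in these values was not tested beyond leaving libraries out.

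**Figure D5:**
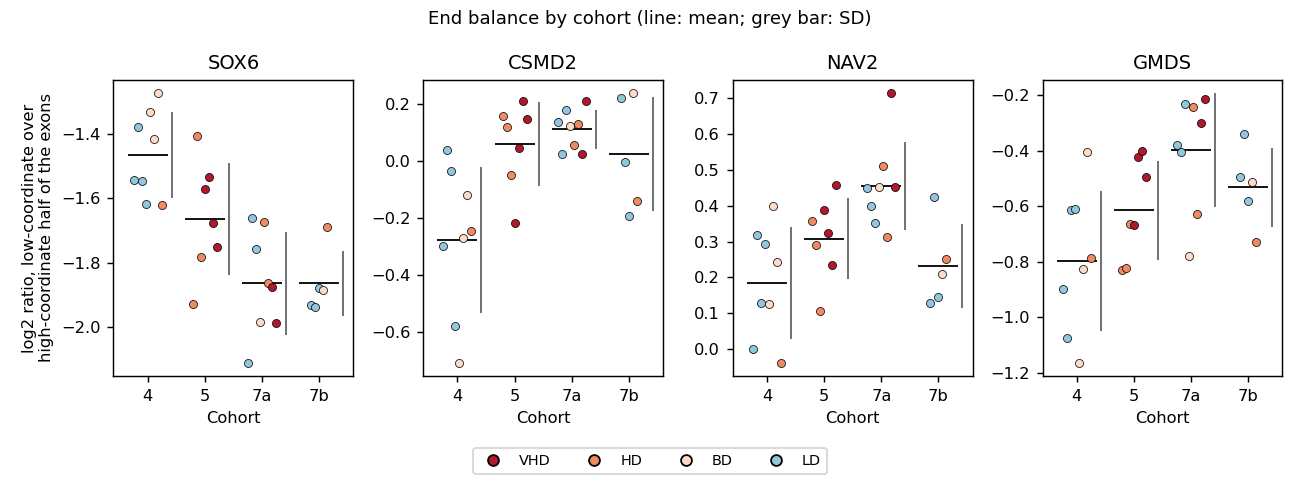
End balance (vertical, log2 ratio of the summed exon values on the low-coordinate side of a gene to those on the high-coordinate side) of SOX6, CSMD2, NAV2 and GMDS in every library, by cohort. Each point is an animal coloured by drinking category, lines are cohort means and grey bars SDs. The SOX6 values of cohort 4, from -1.62 to -1.27, lie above those of cohort 7a, from -2.11 to -1.66.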

How the data were processed

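RNA-seq libraries of the amygdala block of 28 macaques were made with a stranded kit after ribosomal RNA depletion and sequenced on a HiSeq 2000, per the labels' protocols. CASAVA, FastQC, STAR 2.3.0e and edgeR are named in the submitters' processing notes, with no role or order. The genome build is not given in the sources used here. Gene values are deposited as a signal, called upper-quartile normalized reads by the authors in the table's name, and all values were whole multiples of 1 library-specific step within 0.02 reads. The deposited exon table holds a score, the same normalized reads per exon rounded to whole numbers by the authors. Each table had 30 columns, of which 2 matched no sample and were not used.

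Span, exon number and gaps came from the exon coordinates of the files. Genes reaching 10 in at least 5 libraries (13022) were tested on log2(value + 1) with limma 3.58.1 (trend) in R 4.3.3, with cohort as a term and Benjamini-Hochberg adjustment over all of them. Fold changes on this scale understate the change of low genes. Heavy against low drinkers was fitted with cohort, and the categories and the cohorts in 1 further fit. The diffSplice F test was used for exon use (3 or more tested exons per gene), and limma was used for end balance (6 or more). edgeR 4.0.16 and DESeq2 1.42.0 on the recovered reads were alternatives. The code was tested on simulated data. Named genes are the 8 with the smallest p in each direction for heavy against low drinkers, 4 for each category, 8 for cohorts, 5 for exon use and end balance, and a list of well known neuronal genes. Genes and lists were chosen with earlier results of these data known. Some genes named by these rules are not reported here. No sequences are shown, and transcript strand was not used here.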

Additional observations from a re-analysis of the deposited data

Results flagged for a closer look

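In 12 of the 108 sets of values of a named gene in a drinking category, the top or bottom library stood far from the others, by its gap over the group's range. The gap was set against Dixon's 95% critical value, which chance passes in about 1 in 20 independent groups, and groups that share a library are not independent. Over all 134 very long genes there were 71 of 536 (13.2%).

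LD replicate 1 was the top LD library for CSMD1 (3730.1 normalized reads, next 2437), CSMD3 (6084, next 3461), IL1RAPL1 (1198, next 719) and NAV2 (1618, next 896), and the bottom one for PTPRN2 (5005, next 6778). HD replicate 1 was the top HD library for CSMD3 (6287, next 4103) and IL1RAPL1 (1169, next 656). Both are shallow libraries of cohort 4 with the lowest scores for short abundant mRNAs, and the part of depth or RNA quality in these values was not tested.

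HD replicate 5, the library with the highest glutamatergic score, was the top HD library for PARK2 (487, next 329) and the bottom one for SLC24A3 (1139.8, next 1832). LD replicate 5 was the top LD library for ERBB4 (5160.4, next 3861). BD replicate 1, the shallowest library, was the top BD library for FBXL17 (2678, next 2206), and BD replicate 5 the bottom one for LPHN3 (4979, next 6181).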

How the results depend on the processing

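No paired analysis was possible, since each library came from a different animal in 1 drinking category. The labels give no replicate numbers, and those used here follow the order of the samples within each category. The calls of 0 very long genes held in the gene comparisons under other pseudocounts, filters, scaling, edgeR, DESeq2 and each library left out. The median log2 fold change of the members in heavy vs low, 0.0837, was 0.0253 without the 3 shallowest libraries, 0.0246 with no cohort term, 0.0262 with age in place of cohort and 0.0203 in cohort 7a alone. Leaving out 1 library gave 0.0253 (without HD replicate 1) to 0.0962. HD replicate 1 was the only heavy drinker of cohort 4, so without it that cohort no longer bears on the difference. As the 3 shallowest libraries are all of cohort 4 and include it, both settings give the same estimate and are not separate checks. The VHD vs LD median, 0.0417, was 0.101 without the 3 VHD libraries with the highest myelin scores, chosen after seeing the data, and -0.000438 to 0.0802 leaving out 1 library. The Simes test called 1 gene in exon use for heavy vs low and 1 for cohorts, against 0 by the F test. PTPRN2 in heavy vs low, -0.163, turned to 0.0173 without the 3 shallowest libraries and without HD replicate 1, 0.0675 with no cohort term and 0.154 in cohort 7a alone, and spanned -0.206 to 0.0173 over single libraries left out. KIF26B turned to 0.0563 with no cohort term and 0.00762 with age, and with no cohort term SLC24A3 turned to 0.00834 and GALNT13 to 0.0342. Genes at an unadjusted p under 0.05 numbered 3 in heavy vs low, but 2 (without LD replicate 6) to 9 (without HD replicate 7) over single libraries left out, 1 with no cohort term and 19 with pan-neuronal, myelin and astrocyte scores as covariates. Over single libraries left out they numbered 6 (without LD replicate 6) to 20 (without VHD replicate 1) in VHD vs LD, 1 (without LD replicate 7) to 10 (without LD replicate 1) in HD vs LD, 0 to 5 (without BD replicate 5) in BD vs LD and 16 (without BD replicate 5) to 32 (without LD replicate 9) among cohorts. The matching counts over all tested genes in these settings are not given here, so the counts do not show a change particular to the very long genes. The causes were not tested. Limits: 1 heavy drinker in cohorts 4 and 7b, none without ethanol, cohort 5 without low drinkers, a shallow HD replicate 1, and a tissue block whose marker levels differ between animals. The 3-read limit of 1.82 to 24.1 normalized reads bears on RAD51B, MYO3B and SLC25A21.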
